A study of Homo sapiens with 26 samples.

Results

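The endoplasmic reticulum (ER) chaperones and their J-domain partners were followed in 3 human lung cancer cell lines exposed to Omomyc. Omomyc is a mutated fragment of the MYC transcription factor that pairs with MYC, with its partner MAX and with itself, and occupies the E-box sites that MYC uses. The set was chosen by gene symbol: BiP (HSPA5), GRP94 (HSP90B1), the exchange factor GRP170 (HYOU1), the lectins calreticulin (CALR) and calnexin (CANX), and the J-domain proteins DNAJB9, DNAJB11, DNAJC3 and DNAJC10. Of these 9 genes, 8 were measured, each by 1 probe set, among 17687 named genes on the array. No probe set given here carried the symbol HSP90B1, so the level of GRP94 is not analysed here. Total RNA was profiled on 26 arrays from 6 groups: H1975 with Omomyc (5 arrays) or PBS (4), A549 with Omomyc (3) or PBS (4), and H1299 with Omomyc (5) or PBS (5). The labels call H1975 a lung adenocarcinoma line and A549 and H1299 lung carcinoma lines, and each is a single established line. All cells were grown in RPMI medium with serum, plated, left overnight and then given 12.8 µM Omomyc protein or the PBS vehicle. The labels do not say how long the cells were exposed. No other protein served as a control, so a response to Omomyc and a response to an added protein cannot be told apart.

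The ER lumen is where secreted and membrane proteins fold. BiP, an HSP70-type ATPase, holds unfolded chains there: J-domain proteins bring clients and trigger its ATP hydrolysis, nucleotide exchange factors such as HYOU1 release them, and GRP94, the HSP90 of the ER, takes over later folding steps. Calnexin and calreticulin instead hold glycoproteins by their trimmed sugar chains. When unfolded protein builds up, the sensors IRE1, PERK and ATF6 raise transcription of many of these genes, a programme known as the unfolded protein response.

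Values are log2 array signals, so a difference of 1 is a 2-fold change. A gene is said to have risen or fallen where the limma fit over all arrays gave a Benjamini-Hochberg adjusted p under 0.05 over all named genes, and each ± beside a difference is its SE. The level of a gene is compared only with the same probe set on other arrays. Overlap between the arrays of 2 groups is described for the members only. The share of all genes without overlap was not computed. Array values ran between 1.35 and 19.9, and the chaperone genes lay between 7.85 and 17.3 on every array. The 23 background probe sets averaged between 2.34 and 6.69, and the highest of these means is called the background level here. The median of the gene means was 6.48, which is also under that level. The arrays also fell into 3 sets of 9, 10 and 7 by the distribution of all their values, for which the labels name no batch. Set 3 held no A549 array with Omomyc, and every other group had arrays in all 3 sets. On PBS arrays, the keratin KRT8 averaged 16.73 in H1975, 17.48 in A549 and 13.75 in H1299. The NRF2 target AKR1B10 averaged 17.10 in A549, against 3.75 in H1975 and 3.00 in H1299, and CDKN2A, which A549 lacks, averaged 3.33 there. The epithelial markers EPCAM (3.92), KRT7 (4.42) and CDH1 (3.33) lay under the background level in H1299 with PBS, as did CDH1 in H1975 (3.93). Of 8 measured markers of blood, endothelial, stromal and liver cells, 6 lay under the background level in all lines. CD68 and COL1A1 lay above it in at least 1 line, and CD68 rose by 1.49 in H1975. Among 12 measured line markers, 1 rose and 4 fell in H1975, where 5.57% of all genes rose and 6.28% fell. In H1299 1 rose and 1 fell (4.35% and 4.52%), and in A549 0 rose and 0 fell (0.916% and 0.277%). CDKN1A, a cell cycle inhibitor, rose by 1.63 in H1975 and by 1.10 in H1299. In H1975 KRT8 fell by 0.56, NQO1 by 0.84 and AKR1C1 by 1.21, AKR1B10 differed by -0.82 at levels under the background, and in H1299 EGFR fell by 0.81. The 8 markers of blood, endothelial, stromal and liver cells were also averaged per array. In H1975 this mean ran between 5.24 and 5.66 with Omomyc and between 5.00 and 5.69 with PBS. In A549 it ran between 4.26 and 4.77 with Omomyc and between 4.29 and 4.53 with PBS. In H1299 it ran between 4.80 and 5.47 with Omomyc and between 4.65 and 5.47 with PBS. The part of these markers in the chaperone results was not tested.

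Promoter sequences of the members are shown here before their levels. In the textbook scheme, ATF6 and XBP1 act with NF-Y at the ER stress response element (ERSE, CCAAT and CCACG with 9 bases between) and at ERSE-II (ATTGG, 1 base, CCACG), and MYC with MAX binds the E-box CACGTG. The 250 bases before each start, from RefSeq on GRCh38.p14, were searched on both strands, and 12 promoter entries matched all 9 genes. ERSE occurred in 26 of 35116 human promoter entries (0.074%) and in 4 of the 9 genes: HSPA5, HSP90B1, CALR and CANX. ERSE-II occurred in 18 entries (0.0513%), of which HYOU1, with 2 copies, was the member. DNAJB9, DNAJB11, DNAJC3 and DNAJC10 had neither element in this window. The E-box occurred in 6.34% of all entries and in 2 of the genes, HSP90B1 once and DNAJB9 with 2 copies. The UPRE (TGACGTGG), another XBP1 and ATF6 site, occurred in 0.612% of entries and in HYOU1, where it overlaps the upstream ERSE-II, and DNAJC10. The parts of the elements are common: CCACG lay in 33.5% of entries and in 8 of the 9 genes, and CCAAT in 32% and in all 9. In the 250-base sequences below, 5′ to 3′ on the gene's strand, capitals mark ERSE in HSPA5 and CALR, ERSE-II in HYOU1 and the E-boxes in DNAJB9. The CALR element and both HYOU1 elements read on the opposite strand. HSPA5 and HYOU1 are shown as the chaperone genes with each kind of element, CALR because it carries ERSE like HSPA5 and rose in another pair of lines, and DNAJB9 as the gene that rose in every line.
HSPA5 (chr9:125241344-125241593, minus strand): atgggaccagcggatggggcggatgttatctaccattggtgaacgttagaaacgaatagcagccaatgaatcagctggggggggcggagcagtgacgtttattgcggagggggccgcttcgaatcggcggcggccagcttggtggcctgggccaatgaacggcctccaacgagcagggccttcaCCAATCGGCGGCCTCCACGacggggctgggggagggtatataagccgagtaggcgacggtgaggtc
HYOU1 (chr11:119057206-119057455, minus strand): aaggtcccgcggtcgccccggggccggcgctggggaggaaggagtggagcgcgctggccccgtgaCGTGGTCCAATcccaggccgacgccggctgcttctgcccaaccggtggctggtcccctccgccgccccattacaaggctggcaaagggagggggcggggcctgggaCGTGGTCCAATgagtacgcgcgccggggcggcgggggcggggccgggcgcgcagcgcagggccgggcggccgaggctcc
CALR (chr19:12938359-12938608, plus strand): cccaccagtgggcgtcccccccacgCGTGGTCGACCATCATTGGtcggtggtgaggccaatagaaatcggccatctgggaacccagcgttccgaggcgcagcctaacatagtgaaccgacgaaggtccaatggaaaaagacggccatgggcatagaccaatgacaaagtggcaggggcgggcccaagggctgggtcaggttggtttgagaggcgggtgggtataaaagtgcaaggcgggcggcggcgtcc
DNAJB9 (chr7:108569624-108569873, plus strand): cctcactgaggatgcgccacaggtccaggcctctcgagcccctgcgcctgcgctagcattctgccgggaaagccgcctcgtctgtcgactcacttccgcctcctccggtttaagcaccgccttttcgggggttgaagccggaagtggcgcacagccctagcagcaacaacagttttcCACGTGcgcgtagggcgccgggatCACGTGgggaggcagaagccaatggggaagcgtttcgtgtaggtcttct
The elements themselves, written in the direction of CCAAT and with the fixed letters in capitals, differ in the 9 bases between. The HSPA5 element (chr9:125241391-125241409) ends 48 bases before the start and lies nearest to it. CANX, which passed the test in no line, carries the same fixed letters (chr5:179698778-179698796) in 2 of its 4 promoter entries.
HSPA5 element: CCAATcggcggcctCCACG
CALR element (chr19:12938384-12938402, minus strand): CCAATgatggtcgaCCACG
CANX element: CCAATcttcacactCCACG
A match describes the letters of these windows, and binding was not measured. The part of these elements in the responses was not tested.

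**Figure D1:**
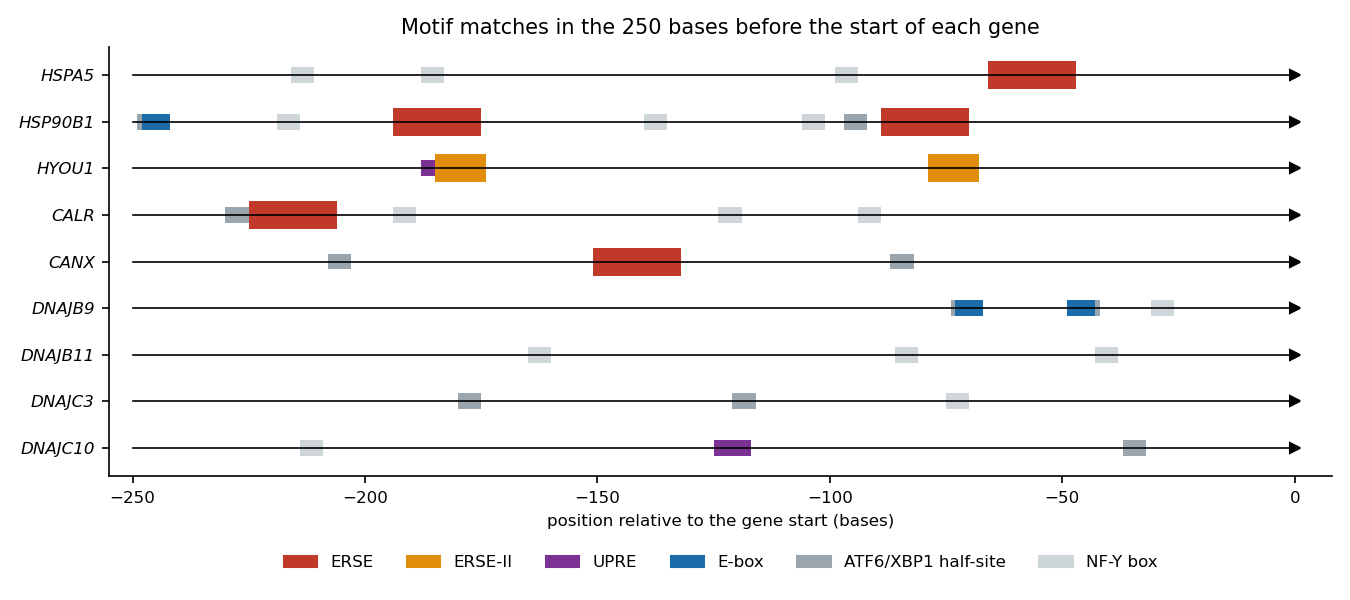
Motif matches in the 250 bases before the start of each of the 9 genes, in bases from the start (x axis). Tall blocks are ERSE (red) and ERSE-II (orange), and low blocks are the UPRE, the E-box, the ATF6 and XBP1 half-site CCACG and the NF-Y box CCAAT outside those elements. CANX is drawn for the lower of its 2 entries with an ERSE, and HSP90B1 is shown although its level was not analysed. HSPA5, HSP90B1, CALR and CANX carry ERSE and HYOU1 carries 2 ERSE-II.

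Omomyc raised the chaperone genes most broadly in A549, where 6 of the 8 measured genes rose: HSPA5, HYOU1, CALR, DNAJB9, DNAJB11 and DNAJC3. In H1975 only HSPA5 and DNAJB9 passed the test, and in H1299 only CALR and DNAJB9. DNAJB9 was the one gene that rose in all 3 lines, and CANX and DNAJC10 passed in none. No member fell in any line, and none had an unadjusted p under 0.05 in that direction in the limma fit. Over all named genes, 5.57% rose and 6.28% fell in H1975, 0.916% rose and 0.277% fell in A549, and 4.35% rose and 4.52% fell in H1299. The 6 of 8 in A549 are a larger share than the 0.916%, whereas the 2 of 8 in H1975 and in H1299 rest on 2 genes each. The members were chosen with earlier results of these data known, so this excess is no test of the set. The shares are also not of genes at like levels, since the median gene mean (6.48) lay under the background level and every member above it. The median difference over the 8 genes was 0.24 in H1975, 1.50 in A549 and 0.41 in H1299, beside medians over all genes of 0.0038, 0.042 and 0.0018. With the array set as a block the counts were 2, 7 and 2, and the shares of all genes that rose were then 9.37% in H1975, 1.71% in A549 and 7.73% in H1299. The gene added in A549 was DNAJC10. RNA came from whole cultures, so a change in every cell and a larger change in some of the cells cannot be told apart.

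**Figure D2:**
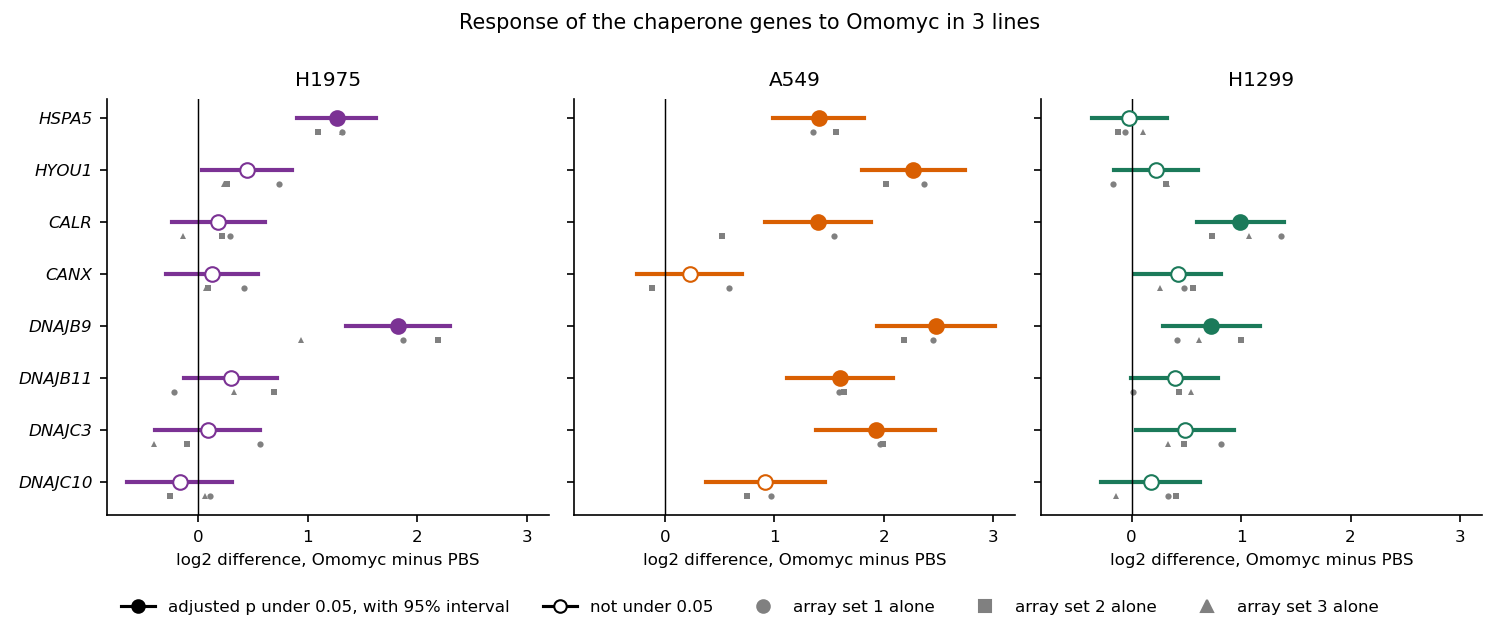
Omomyc minus PBS on the log2 scale (x axis) for the 8 measured genes in H1975, A549 and H1299, with 95% intervals. Filled points passed the test, and small grey marks are the differences within each array set. A549 has 6 filled points, all above 1.4, while H1975 and H1299 have 2 each.

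BiP (HSPA5, probe set TC0900011523.hg.1, chromosome 9), the central HSP70 of the lumen, rose in H1975 and A549 and not in H1299. In H1975 its signal was 17.03, 16.76, 16.65, 16.29 and 16.56 with Omomyc, against 15.58, 15.50, 15.25 and 15.25 with PBS. Every Omomyc array lay above every PBS array, a difference of 1.26 ± 0.18 or 2.40-fold (adjusted p = 1.14e-05). In A549 it was 17.25, 17.09 and 17.26 with Omomyc, against 15.98, 15.65, 15.69 and 15.85 with PBS. The groups were again apart, by 1.41 ± 0.20 or 2.65-fold (adjusted p = 0.000129). In H1299 it was 15.17, 15.05, 14.82, 15.21 and 14.63 with Omomyc, against 15.23, 15.14, 14.99, 14.81 and 14.82 with PBS. These groups overlapped throughout, with a difference of -0.02 ± 0.17, a 95% interval of -0.36 to 0.32 and an adjusted p of 0.98. Within the array sets the HSPA5 difference was 1.32, 1.10 and 1.31 in H1975, 1.36 and 1.57 in A549, and -0.06, -0.13 and 0.11 in H1299.

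HYOU1 (TC1100012510.hg.1, chromosome 11), the large HSP70 relative that releases nucleotide from BiP, rose in A549 alone of the 3 lines. Its signal there was 15.80, 15.92 and 15.30 with Omomyc, against 13.34, 13.66, 13.28 and 13.34 with PBS. No values met, and the difference of 2.27 ± 0.23 was a 4.83-fold rise (adjusted p = 7.42e-07), 2.36 and 2.02 within the array sets. In H1975 the arrays read 14.58, 14.24, 14.08, 13.97 and 13.81 with Omomyc and 13.68, 13.68, 13.85 and 13.57 with PBS. A single Omomyc array lay inside the PBS range, and the difference of 0.44 ± 0.20 did not pass (adjusted p = 0.18). In H1299 the difference was 0.22 ± 0.19 with overlapping groups (adjusted p = 0.628).

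DNAJB9 (ERdj4, TC0700008786.hg.1, chromosome 7), the J-domain protein that restrains IRE1 through BiP and aids ER-associated degradation, rose in every line, most in A549. In A549 it read 12.63, 12.23 and 12.15 with Omomyc, against 10.09, 9.88, 9.96 and 9.51 with PBS. The difference of 2.48 ± 0.26 was 5.57-fold (adjusted p = 1.27e-06), with no overlap and with 2.45 and 2.19 within the array sets. In H1975 it read 11.41, 11.09, 11.26, 11.62 and 10.29 with Omomyc, against 9.38, 9.39, 9.10 and 9.35 with PBS. The lowest Omomyc array still lay above all PBS arrays, and the difference was 1.83 ± 0.23 or 3.55-fold (adjusted p = 2.3e-06), with 1.87, 2.19 and 0.94 within the array sets. In H1299, where DNAJB9 had its lowest level, it read 9.13, 9.16, 9.18, 8.67 and 8.56 with Omomyc, against 8.72, 8.20, 8.13, 7.85 and 8.14 with PBS. There 2 Omomyc arrays lay below the highest PBS array, and the difference was 0.73 ± 0.22 or 1.66-fold (adjusted p = 0.0314), with 0.42, 1.00 and 0.61 within the array sets. The H1299 call was lost when the line was fitted alone (adjusted p = 0.0523). It was also lost when any of PBS replicates 2, 3, 4 and 5 or Omomyc replicates 1, 2 and 3 was left out (adjusted p between 0.0557 and 0.0959, differences between 0.64 and 0.73).

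DNAJB11 (ERdj3, TC0300013911.hg.1, chromosome 3), a soluble J-domain protein that hands substrates to BiP, rose in A549. It read 12.50, 12.41 and 12.42 with Omomyc, against 10.92, 10.81, 10.79 and 10.86 with PBS, the tightest groups of any member. The difference of 1.60 ± 0.23 was 3.03-fold (adjusted p = 0.000165), 1.59 and 1.63 within the array sets. In H1975 the difference was 0.29 ± 0.21 (adjusted p = 0.472) and in H1299 0.39 ± 0.19 (adjusted p = 0.267), with overlapping groups in both.

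DNAJC3 (p58IPK, TC1300007755.hg.1, chromosome 13), a BiP co-chaperone also known to inhibit the kinase PERK, rose in A549 as well. It read 13.26, 13.37 and 13.22 with Omomyc, against 10.85, 11.85, 11.23 and 11.51 with PBS. The Omomyc arrays were close together and the PBS arrays were spread over 1 log2 unit, but they did not meet, and the difference was 1.93 ± 0.27 or 3.80-fold (adjusted p = 7.29e-05), 1.97 and 2.00 within the array sets. In H1975 the difference was 0.085 ± 0.23 (adjusted p = 0.913) and in H1299 0.49 ± 0.22 (adjusted p = 0.207). DNAJC10 (ERdj5, TC0200016574.hg.1, chromosome 2), a disulfide reductase that opens misfolded proteins for degradation, read 14.18, 14.43 and 14.30 with Omomyc in A549, against 13.17, 13.49, 13.55 and 13.32 with PBS. The groups did not overlap, but the difference of 0.92 ± 0.27 did not pass (adjusted p = 0.105), and with the array set as a block it was 0.95 ± 0.23 (adjusted p = 0.0181). In H1975 the DNAJC10 difference was -0.17 ± 0.23 (adjusted p = 0.789) and in H1299 0.17 ± 0.22 (adjusted p = 0.794).

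Of the lectin chaperones, calreticulin (CALR, TC1900007108.hg.1, chromosome 19), the soluble one, rose in A549 and H1299. In H1299 it read 16.67, 16.31, 16.32, 16.15 and 16.35 with Omomyc, against 15.31, 15.47, 15.69, 15.23 and 15.12 with PBS. The groups were apart by 0.99 ± 0.20 or 1.99-fold (adjusted p = 0.00104), 1.36, 0.73 and 1.07 within the array sets. In A549 it read 17.34, 17.18 and 16.37 with Omomyc, against 15.62, 15.81, 15.85 and 14.98 with PBS. The groups did not overlap and differed by 1.40 ± 0.24 or 2.64-fold (adjusted p = 0.000959), but the difference was 1.55 in array set 1 and 0.52 in set 2, and the call was lost when A549 was fitted alone (adjusted p = 0.0841). In H1975 it read 17.29, 17.24, 16.92, 17.10 and 16.99 with Omomyc, against 16.97, 16.75, 16.85 and 17.12 with PBS. Those groups overlapped, with a difference of 0.18 ± 0.21 (adjusted p = 0.72).

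Calnexin (CANX, TC0500009700.hg.1, chromosome 5), the membrane-bound lectin, passed in no line. In A549 it read 16.21, 16.43 and 15.95 with Omomyc and 15.69, 15.77, 16.07 and 16.35 with PBS, a difference of 0.23 ± 0.23 (adjusted p = 0.923, 95% interval -0.25 to 0.70). The groups overlapped there as in the other lines, where the difference was 0.13 ± 0.21 in H1975 (adjusted p = 0.829, 95% interval -0.29 to 0.55) and 0.42 ± 0.19 in H1299 (adjusted p = 0.217, 95% interval 0.03 to 0.82). In A549 the upper end of the CANX interval lay below the lower end of that of CALR (95% interval 0.92 to 1.89). In H1299 the CANX interval overlapped that of CALR (0.59 to 1.40). The 2 genes were not tested against each other.

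**Figure D3:**
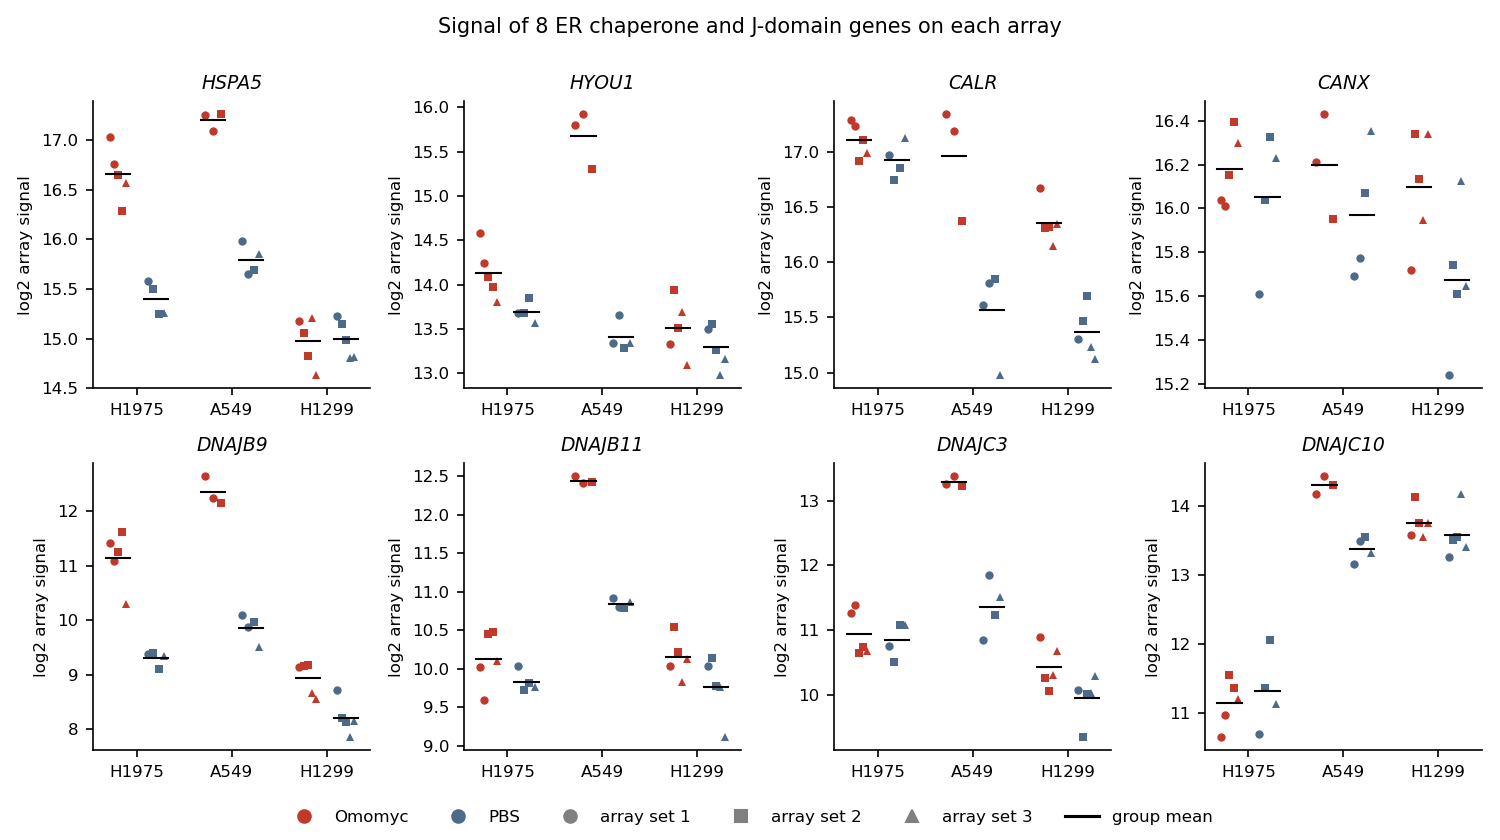
Log2 array signal (y axis, its own scale in each panel) of the 8 measured genes on all 26 arrays, Omomyc in red and PBS in blue, with the group mean as a line and the array set as the marker shape. The Omomyc and PBS arrays do not overlap for HYOU1, DNAJB11, DNAJC3 and DNAJC10 in A549 alone, although DNAJC10 did not pass the test. They also do not overlap for HSPA5 and DNAJB9 in H1975 and A549, and for CALR in A549 and H1299. The share of all genes without overlap was not computed.

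In PBS-treated cells 6 of the 8 genes differed between some pair of lines, a count for which no matching share of all genes was computed. Members called in either direction numbered 3 of 8 for A549 against H1975, 4 of 8 for A549 against H1299 and 4 of 8 for H1975 against H1299, beside 38.3%, 41.5% and 42.0% of all named genes, so these counts lie near the background. DNAJC10 showed the widest gap, with 13.58 ± 0.35 in H1299 (SD, n = 5), 13.38 ± 0.17 in A549 (n = 4) and 11.32 ± 0.57 in H1975 (n = 4). H1299 and A549 did not differ beyond their spread, whereas A549 exceeded H1975 by 2.06 ± 0.25 (adjusted p = 5.49e-08). CALR had the opposite profile, highest in H1975 at 16.92 ± 0.16, with A549 at 15.56 ± 0.40 and H1299 at 15.36 ± 0.22. H1975 exceeded H1299 by 1.56 ± 0.21 (adjusted p = 3.16e-07), A549 minus H1975 was -1.36 ± 0.22 (adjusted p = 7.79e-06), and A549 and H1299 did not differ beyond their spread (adjusted p = 0.504).

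HSPA5 stood in the order A549 (15.79 ± 0.15), H1975 (15.40 ± 0.17) and H1299 (15.00 ± 0.19). A549 exceeded H1299 by 0.80 ± 0.18 (adjusted p = 0.000488), and neither neighbouring pair passed (adjusted p = 0.0995 for A549 against H1975 and 0.0755 for H1975 against H1299). With limma's trend and robust options both pairs passed (adjusted p = 0.0375 and 0.0255), and H1975 minus H1299 passed after quantile normalization (0.51, adjusted p = 0.0164). The J-domain genes DNAJB9 and DNAJC3 kept that order. DNAJB9 had 9.86 ± 0.25 in A549, 9.31 ± 0.14 in H1975 and 8.21 ± 0.32 in H1299, with A549 above H1299 by 1.65 ± 0.23 (adjusted p = 7.64e-07) and H1975 above H1299 by 1.10 ± 0.23 (adjusted p = 0.000248). DNAJC3 had 11.36 ± 0.42, 10.85 ± 0.27 and 9.95 ± 0.36 in the same order of lines, with A549 above H1299 by 1.41 ± 0.23 (adjusted p = 9.93e-06) and H1975 above H1299 by 0.91 ± 0.23 (adjusted p = 0.002). The upper pair did not pass for either gene (adjusted p = 0.075 and 0.112). For DNAJB9 it passed with the array set as a block (0.53, adjusted p = 0.0274), after quantile normalization (0.0209), after median centring (0.0256) and without A549 PBS replicate 4 (0.67, adjusted p = 0.0454), and for DNAJC3 without A549 PBS replicate 1 (0.67, adjusted p = 0.0409). DNAJB11 was highest in A549 (10.85 ± 0.06), above H1975 (9.83 ± 0.14) by 1.01 ± 0.22 (adjusted p = 0.000337) and above H1299 (9.76 ± 0.40) by 1.09 ± 0.21 (adjusted p = 6.8e-05). HYOU1 (13.69 ± 0.12 in H1975, 13.40 ± 0.17 in A549, 13.29 ± 0.24 in H1299) and CANX (16.05 ± 0.32, 15.97 ± 0.30 and 15.67 ± 0.32 in the same order) did not differ beyond the test between any 2 lines. After quantile normalization H1975 minus H1299 passed for HYOU1 (0.46, adjusted p = 0.0433) and CANX (0.50, adjusted p = 0.0466), and CANX also passed with the array set as a block (0.41, adjusted p = 0.0448). Each line is 1 cell line, so these tests compare cultures of these lines.

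Whether the lines responded differently was tested on the difference between their Omomyc responses, in contrasts that use the same arrays as the single-line results. The A549 response exceeded that of H1975 in 4 of 8 genes, where 2.70% of all genes did so, and that of H1299 in 5 of 8, where 1.40% did. The H1975 response exceeded that of H1299 in 2 of 8, where 2.61% did. HYOU1 and DNAJC3 responded more in A549 than in either other line. HYOU1 exceeded H1975 by 1.83 ± 0.30 (adjusted p = 0.000327) and H1299 by 2.05 ± 0.30 (adjusted p = 8.45e-05). DNAJC3 exceeded H1975 by 1.84 ± 0.35 (adjusted p = 0.00167) and H1299 by 1.44 ± 0.34 (adjusted p = 0.0208). The DNAJC3 difference from H1299 was lost after quantile normalization of all arrays (adjusted p = 0.0854), after median centring (0.127) and without A549 Omomyc replicate 2 (adjusted p = 0.0578, difference 1.40).

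DNAJB11 also responded more in A549, by 1.30 ± 0.31 over H1975 (adjusted p = 0.0118) and by 1.21 ± 0.30 over H1299 (adjusted p = 0.0284). The second of these was lost after median centring (adjusted p = 0.0651), and when A549 PBS replicate 2, any A549 Omomyc replicate (1, 2 or 3), H1299 PBS replicate 1 or 2, or H1299 Omomyc replicate 4 was left out (adjusted p between 0.0524 and 0.0795, differences between 1.11 and 1.22). For HSPA5, H1975 and A549 were set apart from H1299: A549 exceeded H1299 by 1.43 ± 0.26 (adjusted p = 0.00194) and H1975 exceeded it by 1.28 ± 0.24 (adjusted p = 0.00104). A549 minus H1975 was 0.14 ± 0.27 for HSPA5, with a 95% interval of -0.41 to 0.70.

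DNAJB9 followed the same division, with A549 over H1299 by 1.75 ± 0.34 (adjusted p = 0.00379), H1975 over H1299 by 1.10 ± 0.32 (adjusted p = 0.0364), and A549 minus H1975 at 0.65 ± 0.35 (adjusted p = 0.389, 95% interval -0.07 to 1.37). The H1975 difference from H1299 was lost with those lines fitted alone (adjusted p = 0.0602) and was 0.32 within array set 3. It was also lost when H1975 PBS replicate 1, 2, 3 or 4, H1975 Omomyc replicate 1, 3 or 4, H1299 PBS replicate 1 or 2, or H1299 Omomyc replicate 4 or 5 was left out (adjusted p between 0.0505 and 0.0772, differences between 0.97 and 1.13). CALR divided the lines in another way: A549 exceeded H1975 by 1.22 ± 0.31 (adjusted p = 0.0204), and H1975 minus H1299 was -0.81 ± 0.29 (adjusted p = 0.101, but 0.0225 with the array set as a block, 0.0356 after quantile normalization and 0.032 with trend and robust options). With the replicate number as a block the first CALR difference was 0.99 (adjusted p = 0.085), after median centring 1.09 (adjusted p = 0.0878) and with those lines fitted alone 1.22 (adjusted p = 0.0571). Within array set 2 it was 0.31, and without A549 PBS replicate 4, Omomyc replicate 1 or Omomyc replicate 2 its adjusted p was 0.0565, 0.0918 and 0.073 with differences between 1.02 and 1.11. CALR in A549 minus H1299 was 0.41 ± 0.31 (adjusted p = 0.69, 95% interval -0.22 to 1.04). For CANX no 2 lines differed beyond the test, with intervals of -0.54 to 0.74 for A549 minus H1975, -0.82 to 0.42 for A549 minus H1299 and -0.87 to 0.28 for H1975 minus H1299. DNAJC10 in A549 minus H1975 was 1.09 ± 0.36 (adjusted p = 0.0814, but 0.0222 with the array set as a block, 0.0396 after quantile normalization, 0.0471 with trend and robust options and 0.0295 without H1975 PBS replicate 1, where the difference was 1.29).

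Of 12 other measured genes of the BiP cycle, 5 rose in H1975, where 5.57% of all genes did, 7 rose in A549, where 0.916% did, and 2 rose in H1299, where 4.35% did. Their median differences were 0.35, 1.27 and 0.36. MANF, a secreted cofactor that stabilises BiP with its client, rose in all 3 lines, by 1.64 ± 0.24 in H1975, 2.76 ± 0.27 in A549 and 1.17 ± 0.22 in H1299 (adjusted p = 1.45e-05, 5.81e-07 and 0.000732). EIF2AK3, which encodes PERK, also rose in all 3, by 0.93 ± 0.26, 1.56 ± 0.29 and 1.18 ± 0.24 (adjusted p = 0.0148, 0.00283 and 0.00145). SDF2L1, which works with DNAJB11, rose by 1.41 ± 0.42 in H1975 (adjusted p = 0.0239) and by 3.00 ± 0.48 in A549 (adjusted p = 0.000449). FICD, which attaches AMP to BiP and removes it, rose by 2.59 ± 0.29 in A549 (adjusted p = 2.11e-06), and the exchange factor SIL1 by 1.48 ± 0.27 (adjusted p = 0.00219). The translocon subunits SEC61A1 (1.46) and SEC61B (0.95) rose in A549, and the sensors ERN1 (IRE1, 0.71) and ATF6 (0.52) in H1975. In A549 ATF6 differed by 0.63 ± 0.19 (adjusted p = 0.132) and ERN1 by 0.47 ± 0.25 (adjusted p = 0.649), and neither passed. In none of the 3 lines did a gene of this list fall by the limma test, and at an unadjusted p under 0.05 there was 1 such gene, in H1299.

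Of 11 other measured genes of the calnexin and calreticulin cycle, 2 rose and 1 fell in H1975 (5.57% and 6.28% of all genes), 2 rose in A549 (0.916%) and 2 rose in H1299 (4.35%), with medians of 0.0014, 0.66 and 0.21. LMAN1, a lectin that carries glycoproteins to the Golgi, rose in all 3 lines by 1.01, 1.18 and 1.07 (adjusted p = 0.00378, 0.0193 and 0.00179). PDIA3, the disulfide isomerase that docks on both lectins, rose in A549 by 1.50 ± 0.24 (adjusted p = 0.00059) and in H1299 by 0.71 ± 0.20 (adjusted p = 0.023), the lines in which CALR rose. In H1975, MOGS, the first glucosidase of the pathway, rose by 1.08 and the glycan-binding MLEC fell by 0.75. In A549 MOGS differed by 0.99 (adjusted p = 0.152) and MLEC by 0.66 (adjusted p = 0.229), and neither passed. Of the partners of GRP94, 3 of 4 were measured, and 1 of these fell in H1975, where 6.28% of all genes did. CNPY4 fell by 2.28 ± 0.35 in H1975 (adjusted p = 3.29e-05) to a mean of 5.76 with Omomyc, which is under the background level, against 8.04 with PBS, and no partner passed in A549 or H1299, where 0 and 1 had an unadjusted p under 0.05. Of 8 measured prolyl isomerases and collagen chaperones, 1 rose in each line (5.57%, 0.916% and 4.35% of all genes) and 1 fell in H1299 (4.52%). FKBP14 was the gene that rose, by 0.57, 1.25 and 1.12 (adjusted p = 0.0256, 0.000323 and 2.65e-05), and FKBP9 fell by 0.86 in H1299.

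Of 14 measured cytosolic and mitochondrial relatives of the ER chaperones, 0 rose and 3 fell in H1975 by the limma test, where 5.57% of all genes rose and 6.28% fell. In A549 0 rose and 0 fell (0.916% and 0.277% of all genes), and in H1299 0 rose and 4 fell (4.35% and 4.52%). The counts of 0 lie near those shares, and the median differences in the 3 lines were -0.16, 0.022 and -0.22. At an unadjusted p under 0.05, 2 were higher and 4 lower in H1975, 2 higher and 0 lower in A549, and 1 higher and 6 lower in H1299. DNAJA1, a cytosolic J-domain protein, fell by 1.53 ± 0.24 in H1975 (adjusted p = 3.91e-05) and by 0.75 ± 0.22 in H1299 (adjusted p = 0.0305). The stress-inducible HSPA1A fell by 1.28 and its exchange factor HSPH1 by 0.59 in H1975. In H1299 the mitochondrial HSPA9 fell by 0.92, HSP90AA1 by 0.69 and the co-chaperone DNAJC7 by 1.10.

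**Figure D4:**
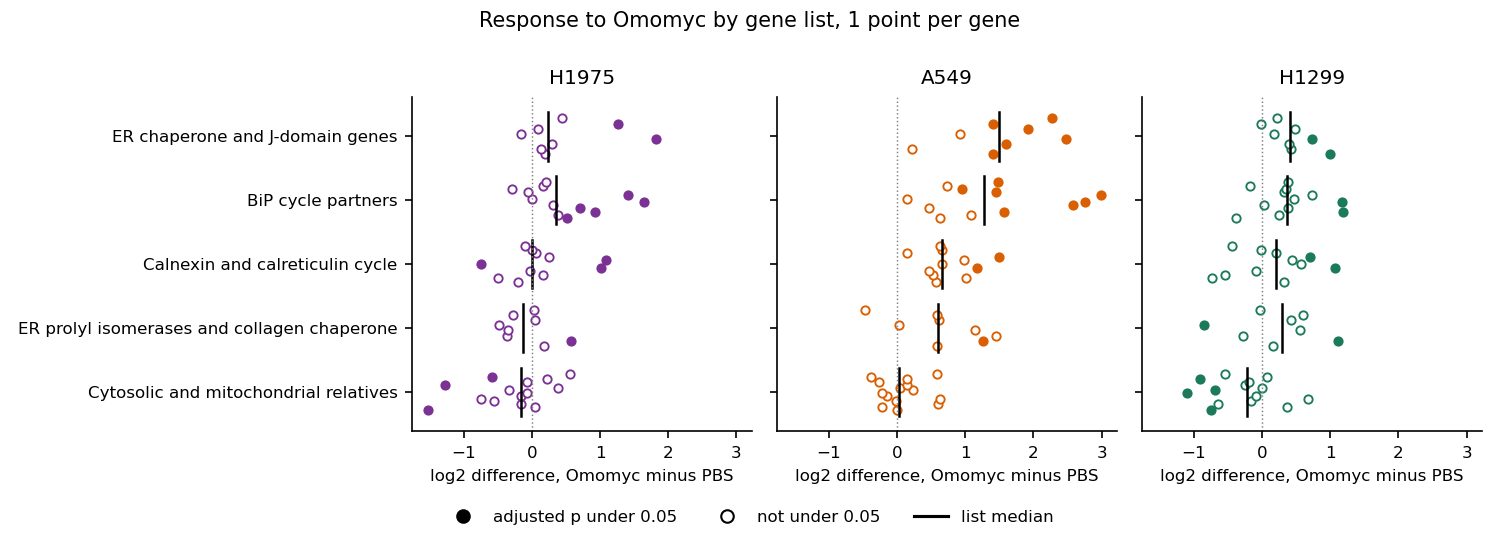
Omomyc minus PBS on the log2 scale (x axis), 1 point per gene, for the 8 ER chaperone and J-domain genes and 4 other lists (rows) in H1975, A549 and H1299, with filled points past the test and a bar at each list median. In A549 the medians are 1.50 for the chaperone genes, 1.27 for the BiP cycle and 0.022 for the cytosolic and mitochondrial relatives.

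Transcription factors linked to the ER were listed with MYC and MAX, ATF6 being in this list and in that of the BiP cycle. Of 8 measured, 5 rose and 1 fell in H1975 (5.57% and 6.28% of all genes), 1 rose in A549 (0.916%) and 3 fell in H1299 (4.52%). The median differences of this list were 0.70, 0.53 and -0.51. DDIT3 encodes CHOP, the late factor of the PERK branch. In H1975 it averaged 10.70 with Omomyc, against 6.09 with PBS (difference 4.61 ± 0.25, adjusted p = 4.13e-13). The PBS value lay under the highest mean of the background probe sets. DDIT3 rose by 1.35 ± 0.28 in A549 (adjusted p = 0.00909) and fell by 1.85 ± 0.23 in H1299 (adjusted p = 3.94e-06). XBP1 rose by 0.89 and ATF4 by 1.15 in H1975 (adjusted p = 0.0193 and 7.36e-05). In A549 XBP1 differed by 0.97 ± 0.29 (adjusted p = 0.122) and ATF4 by 0.43 ± 0.21 (adjusted p = 0.582), and neither passed. MYC itself rose by 0.97 in H1975 and fell by 1.15 in H1299, and MAX fell by 0.92 and 0.75 in the same lines. Their part in the chaperone results was not tested.

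Among genes above the median level, those outside the chaperone set whose signal went most like that of HSPA5 over the 26 arrays, after the line and the array set were taken out, were HERPUD1 (Pearson's r = 0.905), SEC23B (0.893), OSBP (0.892), SSR3 (0.887), GLT8D1 (0.883), DNAJC25 (0.882), ARHGAP42 (0.859) and LARP1B (0.852). These correlations describe arrays that share the same treatment difference. HERPUD1, a membrane protein of ER-associated degradation, differed by 1.91, 2.08 and -0.33 in H1975, A549 and H1299, close in pattern to HSPA5. Among the chaperone genes, DNAJB9 had r = 0.88 (rank 7 of 8842 genes) and HYOU1 r = 0.773 (rank 52). DNAJB11 (0.674) and DNAJC3 (0.54) came next, and CALR (0.446), DNAJC10 (0.294) and CANX (0.264) were least like it.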

How the data were processed

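Gene expression of 26 samples of total RNA was measured on arrays. The deposited values are log2 array signals, which the authors made with RMA and Partek per the submitters' processing notes, with versions and background settings not given in the sources used here. Nothing was normalized again in the main analysis, and the number of arrays limits the precision. Of 24351 features, 17709 had 1 gene symbol in the platform annotation and 6642 had none. These gave 17687 genes, each represented by the probe set with the highest mean. A linear model with 1 coefficient per line and treatment was fitted with limma 3.58.1 in R 4.3.3 to all 26 arrays, which leaves 20 residual degrees of freedom and 1 shared spread, with Benjamini-Hochberg adjustment over all genes. The labels call the replicates biological but do not name separate cultures, so p-values measure the spread between these samples. The genes and lists were chosen with earlier results of these data known. All 9 members were named, and of the other lists any gene that passed. Other genes with values in the text came from those lists, from the 8 most like HSPA5 or from promoter matches.

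The 3 array sets were found from the distribution of all values per array (mean 7.08 to 7.12, 7.30 to 7.36 and 6.94 to 6.99), and a step of processing that differed between them is not described in the labels. Same-numbered Omomyc and PBS arrays deviated together in all 5 pairs of H1299 (r between 0.26 and 0.39) and all 3 of A549 (0.11 to 0.20), but in 1 of 4 pairs of H1975 (-0.20 to 0.33). With the array set taken out, these ranges were -0.15 to 0.046, -0.19 to 0.0083 and -0.26 to 0.082. Alternatives were another normalization, filters, thresholds, fits by line, the array set or replicate number as a block, each array set alone and each array left out. Promoter sequences are from RefSeq (GRCh38.p14) and proteins were not used here.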

Additional observations from a re-analysis of the deposited data

Results flagged for a closer look

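Single arrays stood apart from the rest of their group by Dixon's test in 3 of the 40 groups tested (8 genes in the 5 groups of 4 or 5 arrays), where chance gives about 1 in 20. HYOU1 read 13.66 on A549 PBS replicate 2, above the other 3 arrays. DNAJB9 read 9.10 on H1975 PBS replicate 3, below the others, and DNAJC3 read 9.34 on H1299 PBS replicate 2, below the others.

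The response to Omomyc differed between lines, by a test of the difference itself, in 11 cases. A549 minus H1975 was 1.83 for HYOU1, 1.22 for CALR, 1.30 for DNAJB11 and 1.84 for DNAJC3. A549 minus H1299 was 1.43 for HSPA5, 2.05 for HYOU1, 1.75 for DNAJB9, 1.21 for DNAJB11 and 1.44 for DNAJC3. H1975 minus H1299 was 1.28 for HSPA5 and 1.10 for DNAJB9.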

How the results depend on the processing

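No member that passed in the main fit changed sign in any alternative, and a member that passed in neither fit was not followed for sign. Counts of members that passed were 2 in H1975, 6 in A549 and 2 in H1299 for Omomyc against PBS. Within array set 1 alone, H1299 gave 0, the 3 differences between line responses gave 0 each, and the PBS levels of A549 and of H1975 against H1299 gave 2 each. Within set 2 alone, A549 gave 1, H1299 0, the 3 response differences 0 each and the PBS levels of A549 against H1299 2. Within set 3 alone, H1975 gave 0, H1299 1 and the H1975 minus H1299 response 0. Set by set the limma fit has few arrays, and where it gave 0, between 1 and 5 members had an unadjusted p under 0.05. Fitting only the lines compared left 1 in H1299 and 1 for H1975 minus H1299. At an adjusted p under 0.01 the counts were 1 in H1299, 2 for A549 minus H1975, 3 for A549 minus H1299 and 1 for H1975 minus H1299, and a 2-fold minimum left 0 in H1299, where 4 had an unadjusted p under 0.05. Median centring left 3 for A549 minus H1299. The array set and replicate block together left 2 for A549 minus H1975 (CALR 1.01, adjusted p = 0.178, and DNAJB11 1.29, adjusted p = 0.0641, no longer passed). Quantile normalization gave 7 for the PBS levels of H1975 minus H1299. For those levels 8173 of all 17687 genes then passed, against 7425 in the main fit. With single arrays left out, the counts ran from 2 to 2 in H1975, 6 to 6 in A549, 1 to 2 in H1299, 3 to 5 for A549 minus H1975, 3 to 5 for A549 minus H1299 and 1 to 2 for H1975 minus H1299, and for PBS levels 3 to 4, 4 to 4 and 4 to 4. The replicate block changed no call of a member other than CALR in A549 minus H1975 (0.99), and cannot be fitted to PBS levels between lines. Over all genes, 2095 passed in H1975, 211 in A549 and 1569 in H1299. These became 3400, 502 and 2812 with the array set as a block, 1194, 113 and 886 at an adjusted p under 0.01, and 1018, 50 and 81 within set 1, 1047, 44 and 523 within set 2 and 780 in H1975 within set 3. With both blocks they were 1245 in H1975 and 2622 in H1299, with a 2-fold minimum 1244 and 804, and A549 had 351 after quantile normalization, 81 fitted alone, 128 without Omomyc replicate 1 and 139 without PBS replicate 4. The share of A549 calls that were higher was 76.8% (162 against 49), and 64.7% (227 against 124) after quantile normalization. The causes were not tested.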

Other observations

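Outside the chaperone genes, 38 other genes carried an ERSE or ERSE-II in the same 250-base window, and 30 of them were measured, a list chosen after the data were seen. By the limma test 8 rose and 1 fell in H1975, where 5.57% of all genes rose and 6.28% fell. In A549 9 rose (0.916% of all genes), and in H1299 5 rose and 1 fell (4.35% and 4.52%). Their median differences were 0.29, 0.18 and 0.24, beside 0.0038, 0.042 and 0.0018 over all genes. In H1975 the genes that rose were HERPUD1 (1.91), SDF2L1 (1.41), NAV2 (1.09), TMEM120A (1.05), ZNF143 (0.97), EIF2A (0.93), XBP1 (0.89) and SERP1 (0.81), and SYNPO fell by 1.25. In A549 the genes that rose were led by CRELD2, an ER-resident folding factor (4.29 ± 0.33, adjusted p = 4.149e-09), with SDF2L1 (3.00), FICD (2.59), the oxidase ERO1B (2.30), HERPUD1 (2.08), the translocon-associated SERP1 (1.50), EIF2A (1.10), the disulfide isomerase PDIA6 (1.05) and the calcium-binding NUCB1 (1.00). In H1299 the genes that rose were NAV2 (1.13), TRIM5 (1.22), ERO1B (1.07), TMEM120A (1.01) and PDIA6 (0.54), and SHCBP1 fell by 1.14. Of this list, HERPUD1, SDF2L1, SERP1 and EIF2A rose in both H1975 and A549. NAV2 and TMEM120A rose in both H1975 and H1299, and ERO1B and PDIA6 in both A549 and H1299.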
